A study of Mus musculus with 9 samples.

Results

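Cathepsins are the proteases of lysosomes and late endosomes, and 10 of their genes were followed through R3 (Flt3+CD11c+), R2 (Flt3+CD11c-), and R1 (Flt3-CD11c-) cells of mouse BM. The genes were taken by name (*Ctsa*, *Ctsb*, *Ctsc*, *Ctsd*, *Ctse*, *Ctsh*, *Ctsk*, *Ctsl*, *Ctss*, and *Ctsz*), and all 10 were measured among the 19937 genes tested. *Ctsg*, whose product is a serine protease of granules, was left out of the 10. All 3 populations were Ly6Chi CD115+ cells sorted by flow cytometry from untreated C57Bl/6 mice 8 weeks of age at steady state, with no allele or agent that differs between them. R3 cells are the pre-DCs among these cells, and R2 and R1 cells are monocytes. Each population was hybridized to 3 Affymetrix Mouse Gene 1.0 ST arrays, 1 per label date, so that each date holds an R3, an R2, and an R1 array. The sources used here do not give how many mice stood behind an array, and the tests rest only on the spread between arrays, which may be technical.

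Most cathepsins are papain-like cysteine proteases, and a few are aspartic proteases or serine carboxypeptidases. They are made as inactive proenzymes, are carried to the lysosome largely through mannose 6-phosphate tags, and mature there by cleavage, after which cystatins and some serpins can block them. In phagocytes they digest engulfed material, trim the invariant chain and antigens for MHCII, and process endosomal TLRs, and cathepsin C activates the serine proteases of granules. Of the 10 genes, 7 encode cysteine proteases, 2 aspartic proteases, and 1 a serine carboxypeptidase. Each was represented by 1 probe set, so no level depends on a choice between probe sets. Levels are log2 intensities, differences are log2 fold changes with SE from limma, and a call needs a p under 0.05 after Benjamini-Hochberg adjustment over all genes. No measure of background was available, and *Ctsk* was the only one of the 10 whose mean (4.73) lay below the median of the gene means (6.21).

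The sequences around the transcription start sites are given as context for the genes that were called, and no link between their letters and the levels was tested. RefSeq windows on GRCm38.p6, from 250 bases before to 50 bases after a start site, were held for 7 of the 10 genes (8 windows, of which *Ctsa* has 2), and not for *Ctsb*, *Ctse*, and *Ctsh*. They were searched on both strands for the E-box core CACGTG, its extended form TCACGTGA (which contains the core), the PU.1-type Ets motif GAGGAAGT, and the IRF-type repeat (GAAA, 2 bases of any kind, GAAA). Among all 32851 windows of this length, 7.15% hold the core, 0.974% the extended form, 3.2% the Ets motif, and 3.44% the repeat. Of the 7 genes, 3 hold the core, 2 the extended form, 2 the Ets motif, and 1 the repeat, and 2 (*Ctsk* and *Ctsz*) hold none. These are counts of genes, whereas the shares are of windows, and the first window of *Ctsa* holds none of the motifs. Shown are the windows of the 4 genes with a match that were called in a comparison, 5′ to 3′ on the gene's strand, with matches in capitals. *Ctsc* (chr7:88277835-88278134, + strand) holds the Ets motif on the opposite strand, where it reads ACTTCCTC. *Ctsd* (chr7:142387778-142388077, - strand) holds the core at a first place and the extended form at a second. *Ctsl* (chr13:64370471-64370770, - strand) holds the core. *Ctss* (chr3:95526536-95526835, + strand) holds the repeat and, after it, the Ets motif on the opposite strand. The second window of *Ctsa* holds the extended form at 2 places. A match describes letters and not a bound site.
Ctsc: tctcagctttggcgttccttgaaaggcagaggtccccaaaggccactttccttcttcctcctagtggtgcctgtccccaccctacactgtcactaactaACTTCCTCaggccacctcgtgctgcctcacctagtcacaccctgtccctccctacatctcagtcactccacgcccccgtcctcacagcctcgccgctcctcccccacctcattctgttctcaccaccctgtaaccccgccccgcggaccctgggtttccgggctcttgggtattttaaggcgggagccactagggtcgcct
Ctsd: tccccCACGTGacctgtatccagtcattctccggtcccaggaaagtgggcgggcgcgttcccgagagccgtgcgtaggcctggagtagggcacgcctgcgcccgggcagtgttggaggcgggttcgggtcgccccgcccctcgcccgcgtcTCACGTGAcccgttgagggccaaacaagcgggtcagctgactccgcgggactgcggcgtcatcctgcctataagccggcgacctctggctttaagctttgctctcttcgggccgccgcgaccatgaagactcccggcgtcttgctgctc
Ctsl: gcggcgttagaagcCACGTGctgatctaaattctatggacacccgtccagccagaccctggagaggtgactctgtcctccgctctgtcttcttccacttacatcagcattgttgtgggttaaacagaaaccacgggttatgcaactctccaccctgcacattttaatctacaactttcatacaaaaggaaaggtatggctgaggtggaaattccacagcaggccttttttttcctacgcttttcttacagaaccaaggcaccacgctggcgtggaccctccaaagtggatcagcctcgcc
Ctss: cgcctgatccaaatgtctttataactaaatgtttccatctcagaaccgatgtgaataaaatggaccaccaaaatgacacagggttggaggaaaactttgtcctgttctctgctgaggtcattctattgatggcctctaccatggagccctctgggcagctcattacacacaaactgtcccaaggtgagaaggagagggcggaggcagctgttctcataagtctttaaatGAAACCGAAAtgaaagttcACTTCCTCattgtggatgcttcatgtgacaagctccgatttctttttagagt

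The 10 genes split between those that were lower in R3 pre-DCs and those that did not pass the test. Against R2, 3 of the 10 were called lower in R3 (*Ctsb*, *Ctsc*, and *Ctsd*) and 0 higher, where 4.69% of all genes were called lower and 4.85% higher. Against R1, 6 were called lower in R3 (the same 3 with *Ctse*, *Ctsl*, and *Ctss*) and 0 higher, where 7.02% of all genes were called lower and 6.49% higher. Between R2 and R1, limma called 0 of the 10, where 0.391% of all genes were called in either direction. At an unadjusted p under 0.05, 0 of the 10 were higher in R3 than in R2 (9.91% of all genes) and 0 than in R1 (11.6%), and 3 (*Ctsa*, *Ctse*, and *Ctss*) were lower in R2 than in R1, where 6.11% of all genes were. The methods' t-test with Benjamini-Hochberg adjustment called 1 of the 10 lower in R3 than in R2 (*Ctsc*) and 2 lower than in R1 (*Ctsc* and *Ctss*), with 0 higher in R3 and 0 called between R2 and R1. The median log2 fold change of the 10 was -0.13 for R3 against R2, -0.44 for R3 against R1, and -0.21 for R2 against R1, beside medians over all genes of -0.0069, -0.021, and -0.017. For 8 of the 10 the mean was lowest in R3, intermediate in R2, and highest in R1, and *Ctsk* and *Ctsz* were the exceptions. The share of all genes in this order was not counted, and no difference between R2 and R1 was called. For *Ctsh*, R2 lay only 0.0093 below R1, and this sign turned in 4 of 24 other settings. The comparisons with R3 share the R3 arrays and are therefore not independent. In sorted bulk samples, fewer cells with a transcript and less of it per cell cannot be told apart.

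**Figure D1:**
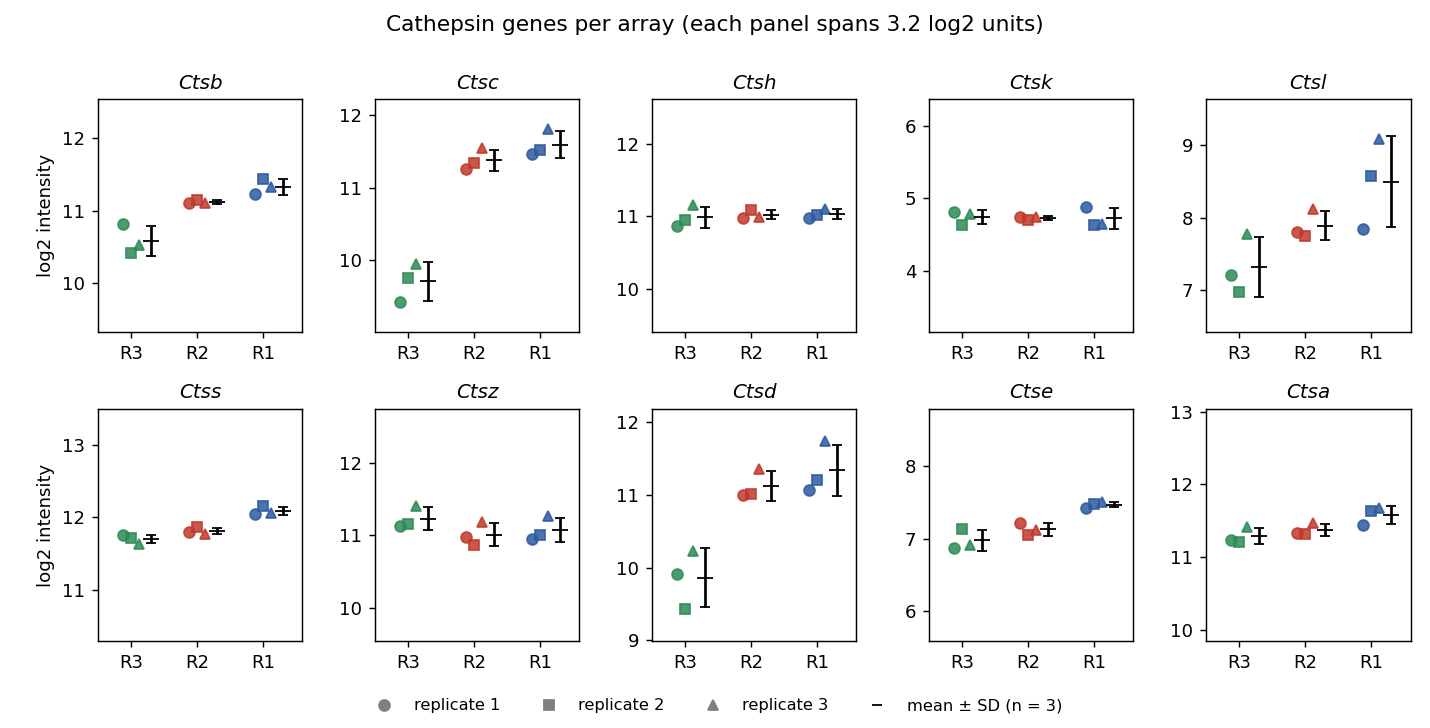
Log2 intensity (y axis) of each of the 10 cathepsin genes on every array of R3, R2, and R1 (x axis). Symbols mark the replicate (label date), bars show mean ± SD (n = 3), and every panel spans the same number of log2 units around the gene's own values. *Ctsc* and *Ctsd* lie far lower on all 3 R3 arrays than on R2 and R1 arrays, whereas *Ctsh* and *Ctsk* overlap throughout.

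Among the cysteine proteases, *Ctsc* had the largest difference. Its product, cathepsin C or dipeptidyl peptidase I, removes dipeptides from the proforms of granule serine proteases. Log2 intensity was 9.42, 9.75, and 9.95 in R3, 11.25, 11.34, and 11.54 in R2, and 11.46, 11.52, and 11.80 in R1. All 3 R3 arrays were below every R2 and R1 array, and R2 and R1 overlapped. The means were 9.71 ± 0.27 in R3, 11.38 ± 0.15 in R2, and 11.59 ± 0.18 in R1 (SD, n = 3 each). *Ctsc* was 3.18-fold lower in R3 than in R2 (log2 fold change -1.67, SE 0.15, adjusted p = 0.000102) and 3.69-fold lower than in R1 (-1.88, SE 0.15, adjusted p = 3.52e-05). The difference of -0.22 between R2 and R1 did not pass (adjusted p = 0.693, 95% interval -0.55 to 0.12).

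*Ctsb* encodes cathepsin B, an abundant endopeptidase and peptidyl-dipeptidase of lysosomes. Its log2 intensity was 10.81, 10.42, and 10.52 in R3, 11.10, 11.15, and 11.10 in R2, and 11.22, 11.44, and 11.32 in R1, so that none of the populations overlapped. Means were 10.58 ± 0.20, 11.12 ± 0.03, and 11.33 ± 0.11 (SD, n = 3) in R3, R2, and R1. *Ctsb* was 1.45-fold lower in R3 than in R2 (-0.53, SE 0.10, adjusted p = 0.0111) and 1.68-fold lower than in R1 (-0.75, SE 0.10, adjusted p = 0.00132). R2 was 0.21 below R1 on the log2 scale and was not called (adjusted p = 0.535). The calls of *Ctsb* were lost when the arrays of label date 2 were left out (adjusted p = 0.160 against R2 and 0.0526 against R1) or those of label date 3 (0.180 and 0.0538).

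*Ctsl* encodes cathepsin L, known for cleaving the invariant chain in thymic epithelium. Of the 10 genes it had the largest SE. Log2 intensity was 7.22, 6.98, and 7.78 in R3, 7.80, 7.75, and 8.12 in R2, and 7.84, 8.58, and 9.08 in R1. R3 lay below R1 without overlap, whereas R3 and R2 overlapped, as did R2 and R1. *Ctsl* was 2.26-fold lower in R3 than in R1 (-1.18, SE 0.30, adjusted p = 0.0309). The differences of -0.57 for R3 against R2 (adjusted p = 0.371, 95% interval -1.25 to 0.11) and -0.61 for R2 against R1 (adjusted p = 0.538) did not pass. The call was lost without any 1 of the R3 replicates 1 or 2, the R1 replicates 2 or 3, or the R2 replicates 1 or 2 (adjusted p 0.0520 to 0.110), and without any 1 label date (0.0563 to 0.330).

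*Ctss* encodes cathepsin S, which performs the last cleavages of the invariant chain in DCs and B cells and remains active at neutral pH. Its log2 intensity was 11.75, 11.72, and 11.64 in R3, 11.80, 11.86, and 11.77 in R2, and 12.04, 12.15, and 12.06 in R1. The 3 populations formed a ladder with no overlap, with means of 11.70 ± 0.06, 11.81 ± 0.05, and 12.08 ± 0.06 (SD, n = 3) in R3, R2, and R1. Against R1, *Ctss* was 1.30-fold lower in R3 (-0.38, SE 0.066, adjusted p = 0.00421). Against R2, the difference was -0.11 (adjusted p = 0.458), and R2 was 0.27 below R1 on the log2 scale (unadjusted p = 0.00239, adjusted p = 0.150). The call against R1 was lost without the arrays of label date 2 (adjusted p = 0.0928) or 3 (0.0590). *Ctss* and *Ctsk* are next to each other among the protein-coding genes of chromosome 3 (RefSeq, GRCm38.p6).

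The other cysteine cathepsins did not pass the test in any comparison. *Ctsh*, whose product is an aminopeptidase, had 10.87, 10.94, and 11.15 in R3, 10.98, 11.09, and 10.996 in R2, and 10.97, 11.03, and 11.10 in R1. The 3 populations overlapped, and R3 against R1 differed by -0.05 with a 95% interval of -0.24 to 0.15 (adjusted p = 0.821). *Ctsk*, whose product is the collagenase of osteoclasts, lay between 4.64 and 4.88 on all 9 arrays. *Ctsz* encodes cathepsin Z, a carboxypeptidase, and had 11.13, 11.15, and 11.41 in R3, 10.97, 10.87, and 11.18 in R2, and 10.95, 11.001, and 11.27 in R1. It was the only one of the 10 with a higher value in R3 than in R1 on all 3 label dates, but the populations overlapped and neither 0.22 against R2 (adjusted p = 0.389, 95% interval -0.05 to 0.49) nor 0.16 against R1 (adjusted p = 0.502, 95% interval -0.11 to 0.43) passed.

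**Figure D2:**
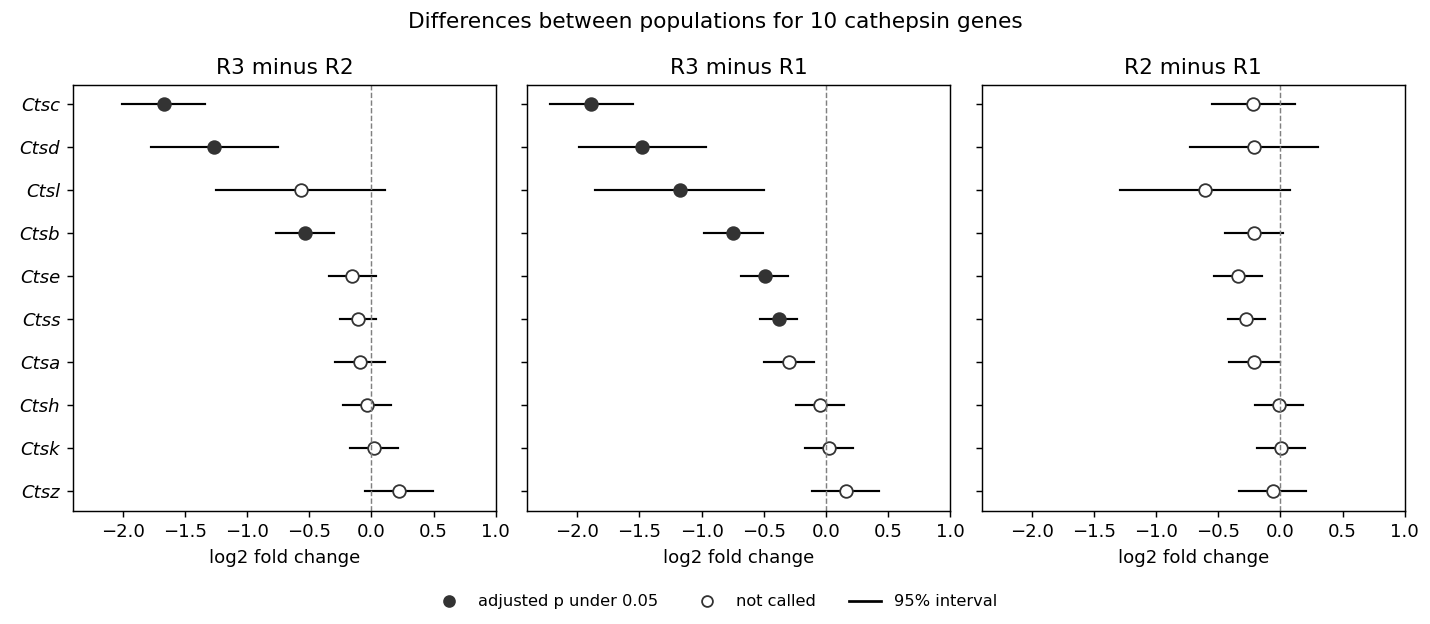
Log2 fold change (x axis) of each cathepsin gene (y axis, ordered by R3 minus R1) for R3 minus R2, R3 minus R1, and R2 minus R1. Points are limma estimates, lines their 95% intervals, and filled points have an adjusted p under 0.05. Called genes number 3, 6, and 0 from left to right, and all of them lie below 0.

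Both aspartic proteases were lower in R3 than in R1. Cathepsin D, the product of *Ctsd*, is the main aspartic protease of lysosomes and activates other proenzymes there. Log2 intensity of *Ctsd* was 9.92, 9.43, and 10.24 in R3, 11.01, 11.01, and 11.36 in R2, and 11.07, 11.21, and 11.74 in R1, with R3 below every other array. Means were 9.86 ± 0.40, 11.13 ± 0.20, and 11.34 ± 0.35 (SD, n = 3) in R3, R2, and R1. *Ctsd* was 2.40-fold lower in R3 than in R2 (-1.26, SE 0.23, adjusted p = 0.00701) and 2.78-fold lower than in R1 (-1.48, SE 0.23, adjusted p = 0.00217). The difference between R2 and R1 was -0.21 (adjusted p = 0.818, 95% interval -0.73 to 0.30). Against R2 the call was lost without the arrays of label date 1 (adjusted p = 0.0914) or 2 (0.102).

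*Ctse* encodes cathepsin E, an aspartic protease of endosomes rather than lysosomes. It had 6.87, 7.13, and 6.92 in R3, 7.22, 7.04, and 7.12 in R2, and 7.43, 7.48, and 7.50 in R1. Every R1 array was above all R3 and R2 arrays, and R3 and R2 overlapped. *Ctse* was 1.41-fold lower in R3 than in R1 (-0.49, SE 0.085, adjusted p = 0.00412), and the call was lost without label date 3 (adjusted p = 0.0958). The differences of -0.15 for R3 against R2 (adjusted p = 0.399) and -0.34 for R2 against R1 (unadjusted p = 0.00294, adjusted p = 0.160) did not pass. The serine carboxypeptidase gene *Ctsa*, whose product also shields β-galactosidase and neuraminidase 1 from degradation, had 11.23, 11.21, and 11.41 in R3, 11.33, 11.32, and 11.47 in R2, and 11.44, 11.63, and 11.67 in R1. R3 lay below R1 without overlap, and the difference of -0.30 (SE 0.089) missed the threshold (adjusted p = 0.0605, 95% interval -0.50 to -0.10). It passed with the label date as a block (adjusted p = 0.0369).

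Counted by overlap alone, 4 of the 10 genes were lower on every R3 array than on every R2 array (*Ctsb*, *Ctsc*, *Ctsd*, and *Ctss*), where 12.2% of all genes were. For R3 against R1 it was 7 of 10 (*Ctsa*, *Ctsb*, *Ctsc*, *Ctsd*, *Ctse*, *Ctsl*, and *Ctss*), beside 12.9% of all genes, and for R2 against R1 it was 3 of 10 (*Ctsb*, *Ctse*, and *Ctss*), beside 7.99%. Calls of at least 2-fold were rarer. *Ctsc* and *Ctsd* were called lower by this much in R3 than in R2 (1.62% of all genes), and *Ctsc*, *Ctsd*, and *Ctsl* in R3 than in R1 (2.22%).

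The R2 mean lay close to the R1 mean for some genes and closer to the R3 mean for others. Of the difference between the R3 and R1 means, the part that separated R2 from R1 was 11.5% for *Ctsc*, 14.5% for *Ctsd*, and 28.4% for *Ctsb*. It was 51.6% for *Ctsl*, 69.1% for *Ctse*, and 71.7% for *Ctss*, and 70.0% for *Ctsa*, whose difference between R3 and R1 was not called. Whether R3 minus R2 differed from R2 minus R1 was tested as a contrast in the same fit, chosen after the values were seen. *Ctsc* alone was called (-1.45, SE 0.26, adjusted p = 0.0163), where 1.38% of all genes were called in this direction. The call was lost without any 1 R2 array (adjusted p 0.0594 to 0.0974) or any 1 label date (0.0624 to 0.304). For *Ctsd* the contrast was -1.05 (SE 0.39, adjusted p = 0.275), and adjusted p of the other 8 genes ran between 0.546 and 0.991. For *Ctsd* and these 8, a departure of R2 from the midpoint between R1 and R3 was not shown. The contrast was run within each gene, and no test compared the placing of R2 between genes.

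**Figure D3:**
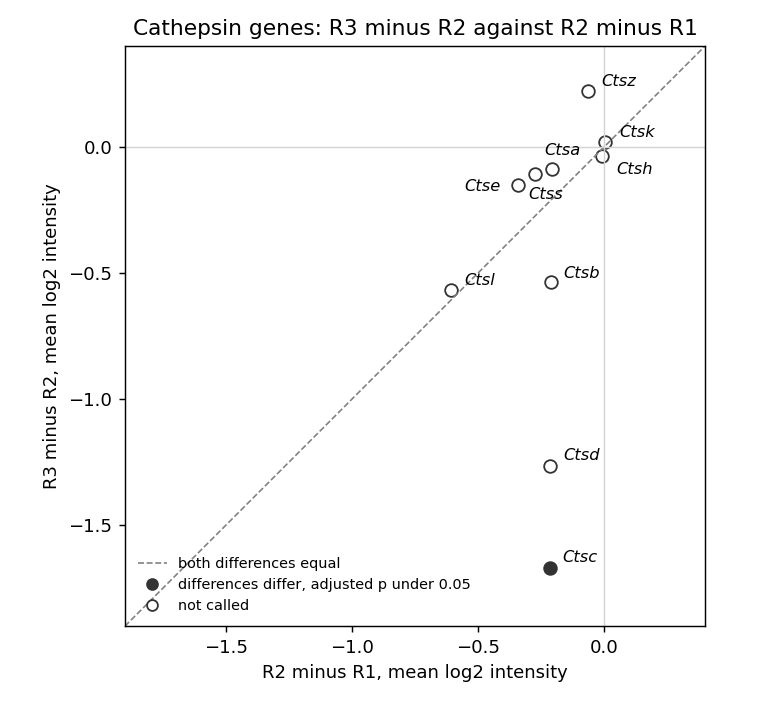
Mean difference R3 minus R2 (y axis) against R2 minus R1 (x axis), both in log2 intensity, for the 10 cathepsin genes. On the dashed line both differences are equal, and the filled point marks the contrast with an adjusted p under 0.05. *Ctsc* lies at -0.22 and -1.67 and *Ctsd* at -0.21 and -1.26, whereas *Ctsl* lies near the line. Both axes contain the R2 arrays.

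For each of the 6 called cathepsins, the 3 genes of most similar pattern were taken as those with the smallest root mean square difference in log2 intensity over the 9 arrays, after each gene was centered on its own mean. This is a description of likeness with no test, and values near 0 mean similar patterns. Genes that vary little also give small values, so each value is read beside the cathepsin's own root mean square around its mean. For *Ctsc*, which itself varied by a root mean square of 0.859 around its mean, they were *Glrx* (glutaredoxin, 0.113), *Trem2* (a myeloid surface receptor, 0.116), and *Cebpb* (a transcription factor of myeloid cells, 0.124). For *Ctsd* (0.706 around its mean) they were *Nod1* (a sensor of bacterial peptidoglycan, 0.132), *Rilpl2* (0.165), and *Pde8a* (a cyclic AMP phosphodiesterase, 0.167). *Pde8a* (0.221) was also nearest to *Ctsl* (0.603 around its mean), followed by *Cyp4f18* (0.223) and *Lipa* (lysosomal acid lipase, 0.229). The nearest to *Ctsb* (0.332 around its mean) were *Ppp2r5a* (0.0769), *Traf3ip3* (0.0775), and *Calu* (0.0842). *Ctss* (0.166 around its mean) was nearest to *Dcaf11* (0.0477), *Cmpk1* (0.0520), and *Psg18* (0.0557). *Psg18* was of low intensity, with means of 3.48 in R3, 3.49 in R2, and 3.82 in R1. *Ctse* (0.221 around its mean) was nearest to *Ext1* (0.0680), *Zfp954* (0.0719), and *Gm9920* (0.0726).

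The genes listed as inhibitors of cathepsins did not share a direction. Of 18 listed, 16 were measured, and in R3 against R2 1 was called higher and 2 lower (median 0.017), and in R3 against R1 1 higher and 1 lower (median 0.017). Of all genes, 4.85% were called higher and 4.69% lower against R2, and 6.49% higher and 7.02% lower against R1. Only *Cst3*, *Cst7*, *Cstb*, and *Serpinb1a* had means above the median of the gene means (6.21), so these medians mostly describe genes of low intensity. *Cst7* was higher in R3 than in R1 without overlap but was not called (0.68, adjusted p = 0.0705). *Cst3*, encoding the secreted inhibitor cystatin C, had 12.79, 12.79, and 12.78 in R3, 12.50, 12.55, and 12.51 in R2, and 12.40, 12.53, and 12.54 in R1. It was higher in R3 than in R2 by 0.27 (adjusted p = 0.0294) and than in R1 by 0.30 (adjusted p = 0.0140), with no overlap. *Cstb*, encoding the intracellular inhibitor cystatin B, had 9.71, 9.72, and 9.74 in R3, 10.76, 10.77, and 10.99 in R2, and 10.76, 10.86, and 10.97 in R1. It was 2.16-fold lower in R3 than in R2 (-1.11, adjusted p = 4.19e-05) and 2.20-fold lower than in R1 (-1.14, adjusted p = 2.67e-05). *Serpinb1a*, an inhibitor of granule serine proteases such as cathepsin G, was lower in R3 than in R2 (-0.82, adjusted p = 0.0237) and not called against R1 (-0.54, adjusted p = 0.0987). With the methods' t-test and adjustment, the calls left were *Cst3* and *Cstb* against R2 and *Cstb* against R1.

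Of 4 genes for activation and partner proteins, *Lgmn* and *Neu1* were called, in opposite directions. *Lgmn* encodes legumain, an asparaginyl endopeptidase that cleaves several cathepsins to their 2-chain forms. It had 9.35, 8.97, and 9.50 in R3, 8.22, 8.31, and 8.54 in R2, and 8.49, 8.72, and 9.03 in R1. *Lgmn* was 1.89-fold higher in R3 than in R2 (0.92, adjusted p = 0.00778), and the difference of 0.53 against R1 did not pass (adjusted p = 0.0751). *Neu1*, encoding the neuraminidase that cathepsin A stabilizes, was lower in R3 than in R2 (-0.87, adjusted p = 0.0130) and than in R1 (-1.01, adjusted p = 0.00459). *Psap* and *Glb1* were not called. The methods' t-test with adjustment called 0 of the 4 genes against R2 and 0 against R1, so the calls of *Lgmn* and *Neu1* were lost under it.

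Of 12 genes for mannose 6-phosphate tagging and lysosomal sorting, 11 were measured, of which 1 was called lower in R3 than in R2 and 2 lower than in R1. Of all genes, 4.69% and 7.02% were called lower in these comparisons. *Sort1*, encoding the sorting receptor sortilin, had 8.01, 7.12, and 7.55 in R3, 9.90, 9.96, and 9.84 in R2, and 9.86, 10.16, and 10.09 in R1. It was 5.07-fold lower in R3 than in R2 (-2.34, adjusted p = 6.06e-05) and 5.56-fold lower than in R1 (-2.48, adjusted p = 3.15e-05). *Vps35*, a retromer subunit, was lower in R3 than in R1 (-0.35, adjusted p = 0.0339). Of the 4 MiT/TFE factors, whose family drives lysosomal genes through E-box-like motifs, *Tfec* had 5.27, 6.71, and 6.30 in R3, 10.46, 10.36, and 10.43 in R2, and 9.77, 9.87, and 10.07 in R1. *Tfec* was lower in R3 than in R2 (-4.32, adjusted p = 2.01e-05) and than in R1 (-3.81, adjusted p = 3.32e-05). *Tfeb*, *Tfe3*, and *Mitf* were not called in any comparison. *Sort1* and *Tfec* were also called against both populations by the methods' t-test with adjustment, and *Vps35* was not.

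Called genes of the class II pathway, in which cathepsins act, ran the other way from *Ctsc* and *Ctsd*. Of 11 class II pathway genes 9 were measured, with 7 calls of a higher level in R3 against R2 (median 1.69) and 8 against R1 (median 1.99), and none of a lower level. *Cd74*, encoding the invariant chain, had 10.68, 11.42, and 11.73 in R3, 8.83, 9.99, and 9.51 in R2, and 9.05, 9.90, and 8.91 in R1. It was 3.57-fold higher in R3 than in R2 (1.83, adjusted p = 0.0132) and 3.98-fold higher than in R1 (1.99, adjusted p = 0.00653). *Ciita*, the master regulator of MHCII genes, was higher in R3 by 1.37 against R2 (adjusted p = 0.00538) and by 1.56 against R1 (adjusted p = 0.00193). Further called genes were *H2-Oa* (1.69 against R2 and 2.20 against R1), *H2-DMa* (1.07 and 1.09), *H2-Ab1* (2.17 and 2.66), and *H2-Eb1* (2.08 and 2.33), and *H2-Aa* was called against R1 (2.85). *Ifi30*, encoding a lysosomal thiol reductase, was not called (0.29 and 0.20). Under the methods' t-test with adjustment, 2 of the 9 genes were called against R2 and 2 against R1 (*H2-DMa* and *H2-Oa* in both), and the other calls were lost, those of *Cd74* and *Ciita* among them. The study's first flow cytometry gate for these populations took MHCII- cells, but the paper also reports MHCII in R2 and R3 by flow cytometry and on arrays. The sources used here do not say whether the array samples were gated as MHCII-.

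Cathepsins can cleave the ectodomains of endosomal TLRs. The list for these TLRs held 6 genes, among them *Unc93b1*, which does not itself encode a TLR and was not called. Of the 6 genes, 3 were called lower in R3 in both comparisons. They were *Tlr7* (-1.996 against R2 and -3.14 against R1), *Tlr8* (-2.65 and -3.39), and *Tlr13* (-2.35 and -3.11). *Tlr9* was called higher in R3 than in R2 (0.68, adjusted p = 0.0158) and not against R1 (0.33, adjusted p = 0.190). Of these genes, the methods' t-test with adjustment called *Tlr13* against R2, and *Tlr8* and *Tlr13* against R1. Of the 9 genes of granule serine proteases that cathepsin C activates, 4 were called lower in R3 than in R2 and 3 lower than in R1. *Elane* (neutrophil elastase) differed by -4.16 and -3.46, *Prtn3* (proteinase 3) by -3.21 and -2.51, and *Ctsg* (cathepsin G) by -4.45 and -3.70, against R2 and R1 in this order, and *Mcpt8* was lower against R2 (-1.57, adjusted p = 0.0113). The methods' t-test called *Elane*, *Prtn3*, and *Ctsg* against R2, and *Elane* and *Ctsg* against R1. Of 12 further cathepsin genes 10 were measured, and limma called 0 of them in any comparison, also at an unadjusted p under 0.05, as did the methods' t-test with adjustment. *Ctso* differed most (-0.43 against R2, adjusted p = 0.330, and -0.40 against R1, adjusted p = 0.302). It was also the only one of them with a mean (7.12) above the median of the gene means (6.21). For the others, at low intensity, a missed call says little about a difference. Over all 8 lists, limma called 22 of the 69 genes against R2 and 20 against R1, and the methods' t-test with adjustment 10 and 9. Between R2 and R1, limma and the methods' t-test with adjustment called 0 of the 69, and limma 8 higher and 8 lower at an unadjusted p under 0.05. These were not spread evenly over the lists. In R2, 5 granule serine protease genes were higher and 0 lower, whereas 0 genes of the endosomal TLR list were higher and 4 lower. *Ctsg* averaged 11.38 in R2 and 10.63 in R1, and the paper also names it among genes higher in R2 than in R1. In limma, 0.391% of all genes were called between R2 and R1. At that unadjusted p 6.11% of all genes were lower in R2, and the share that was higher is not given here.

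**Figure D4:**
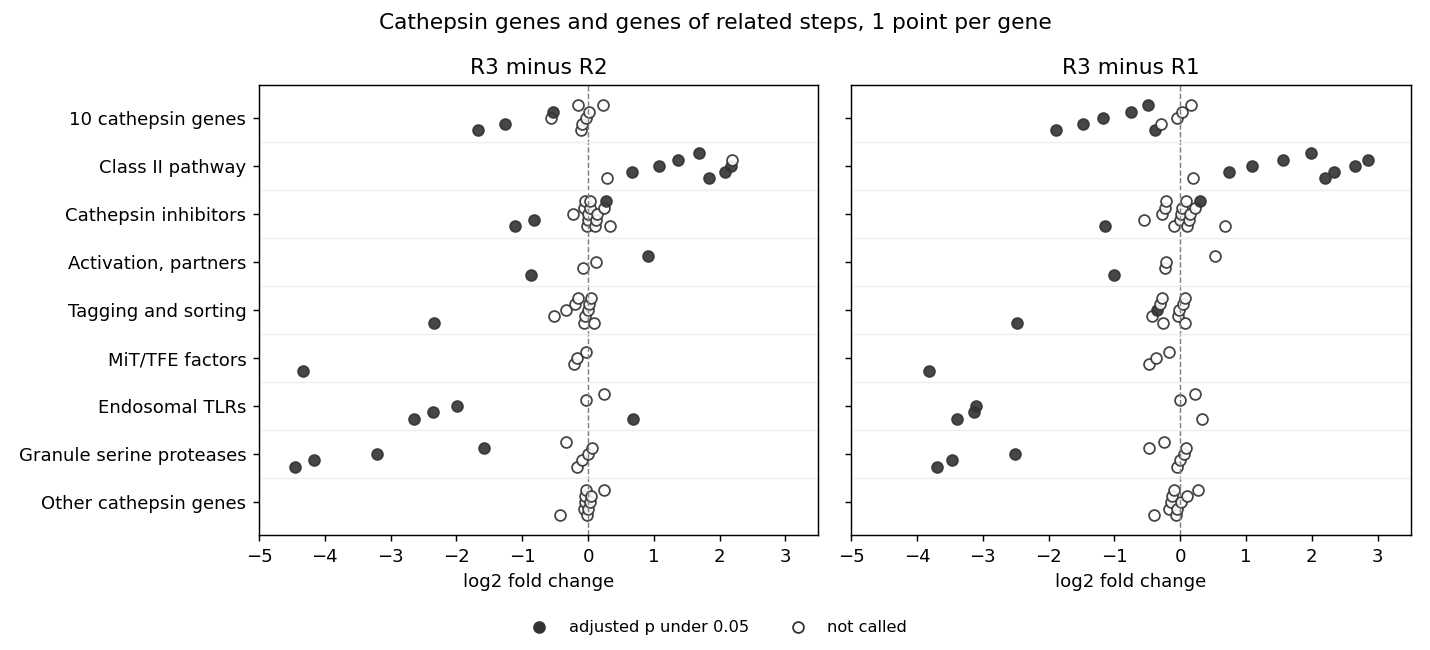
Log2 fold change (x axis) of the 10 cathepsin genes and of the genes in 8 related lists (y axis), for R3 minus R2 and R3 minus R1, with 1 point per gene. Filled points have an adjusted p under 0.05, and vertical offsets only separate points. Called cathepsins lie below 0, called class II pathway genes lie above 0, and most inhibitors lie near 0. Most inhibitors, and the other cathepsin genes except *Ctso*, had means below the median of the gene means.

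The sorted phenotype was visible in the transcripts. *Flt3* was higher in R3 than in R2 (3.13, adjusted p = 2.37e-05) and than in R1 (3.81, adjusted p = 5.62e-06), as was *Itgax*, encoding CD11c (4.94 and 5.57). R2 cells, sorted as Flt3+, differed from R1 by 0.68 in *Flt3* and were not called (adjusted p = 0.281). *Csf1r*, encoding CD115, was lower in R3 than in R1 (-0.51, adjusted p = 0.00336). Markers of other cells moved with some samples. The linear intensities of 7 neutrophil markers summed to 4051, 259, and 1187 on R3 replicates 1, 2, and 3, 696, 281, and 445 on those of R2, and 279, 191, and 417 on those of R1, and limma and the methods' t-test with adjustment called 0 of the 7 genes in any comparison (1 at an unadjusted p under 0.05 in each). Without R3 replicate 1, the 3 calls of *Ctsb*, *Ctsc*, and *Ctsd* against R2 held, and 5 of the 6 against R1 (*Ctsl* was lost, adjusted p = 0.0971). Sums over 10 resident macrophage markers were 353 to 390 in R3, 414 to 431 in R2, and 419 to 532 in R1. Of these, *Axl* and *Siglec1* were called lower in R3 than in R1, while *C1qa*, *C1qb*, *C1qc*, *Cd5l*, *Mertk*, *Spic*, *Timd4*, and *Vcam1* were all below the median of the gene means, and the methods' t-test with adjustment called 0 of the 10. Sums over 5 plasmacytoid DC markers were 6827 to 8766 in R3, 1551 to 1669 in R2, and 1786 to 1804 in R1, and R3 was called higher for 4 of the 5 against R2 and for 5 of 5 against R1 (4 and 4 in the methods' t-test with adjustment). Sums over 5 conventional DC markers were 2387 to 2880 in R3, 444 to 536 in R2, and 316 to 336 in R1. The R3 sum rests mainly on *Clec9a*, whose log2 mean in R3 was 11.19, beside 7.26 for *Batf3*, the next highest. *Clec9a* and *Zbtb46* were called higher in R3 in both comparisons (*Clec9a* in both in the methods' t-test), and *Clec9a* higher in R2 than in R1. *Xcr1*, *Batf3*, and *Cd8a* were not called in any comparison. Of 7 T and NK cell markers, *Nkg7* was called lower in R3 (-2.16 against R2, adjusted p = 0.00302, and -1.46 against R1, adjusted p = 0.0181), and of 4 progenitor markers *Kit* was called higher in R3 than in R1 (0.82, adjusted p = 0.0104), both lost in the methods' t-test. The part of these cells in the differences of the cathepsin genes was not tested.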

How the data were processed

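The data are 1 linear intensity per probe set and array for 34760 probe sets, as the authors deposited them. Per the labels and the methods, 1 ng RNA per sample was amplified with the NuGEN Ovation Pico WTA V2 kit, labeled with biotin, put on Mouse Gene 1.0 ST arrays of Affymetrix, and analyzed with GenePattern. Background correction, summarization, and normalization are not given in the sources used here. Array medians were 58.0 to 64.7. The number of arrays limits the precision.

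Names came from the platform annotation, which gives 1 gene to 21640 probe sets, several to 1321, and none to 11799. Entrez IDs of 21553 single-gene probe sets were found in the RefSeq gene table of GRCm38.p6, which updated 0 symbols and was used for names and neighboring genes. Each gene is given by the probe set that names it alone and has the highest mean, which left 19937 genes. Deposited intensities were put on the log2 scale with no offset and fitted by lmFit and eBayes of limma 3.58.1 in R 4.3.3, the 3 populations in 1 model of 9 arrays with 6 residual degrees of freedom. Benjamini-Hochberg adjustment ran over all genes within each comparison. The fit was tested on simulated data with independent normal noise and no pairing by label date. This checks the code, and says nothing of shared technical spread in the arrays.

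Replicate numbers stand for the label dates, which pair the arrays. Deviations from the population means correlated at -0.024 to 0.15 over the 9 pairs of arrays of the same date, and at -0.15 to 0.081 over the 18 pairs of different dates. The methods name an unpaired test, so the date was not a block in the fit.

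Alternatives covered scaling, filter, offset, probe set, variance model, samples, test, and left-out arrays. The members, lists, and tests were chosen with earlier results of these data known. All members are described. From each list, genes called in a comparison are named, up to the 6 of largest fold change, and *Cst3*, *Lgmn*, *Cd74*, and *Ciita* in any case. *Cst7*, *Ctso*, *Ifi30*, *H2-DMa*, *Psap*, *Glb1*, *Tfeb*, *Tfe3*, *Mitf*, *Unc93b1*, and the markers named were singled out after their values were seen. Promoter sequences and their coordinates are from RefSeq (GRCm38.p6).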

Additional observations from a re-analysis of the deposited data

How the results depend on the processing

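Over 24 other settings, 12 of which left out arrays, *Ctsc* kept its direction and its calls against R2 and R1 in all of them (adjusted p at most 0.0270 and 0.0306). With the methods' t-test and Benjamini-Hochberg adjustment, called cathepsins numbered 1 for R3 against R2 (*Ctsc*) and 2 for R3 against R1 (*Ctsc* and *Ctss*), and all genes 893 between R3 and R2, 658 between R3 and R1, and 1 between R2 and R1, beside 1903, 2693, and 78 in limma. At an unadjusted p that test gave 3460 genes for R3 against R2 and 1488 for R2 against R1, with 3 cathepsins in the comparison of R2 with R1 (*Ctsb*, *Ctse*, and *Ctss*). Calls between R2 and R1 over all genes also moved to 38 with arrays centered on their medians, 144 with quantile normalization (100 higher and 44 lower, beside 42 and 36), 23 with the replicate block, 1 with only the 6 arrays compared, and 343 with array weights. With the replicate block, called cathepsins numbered 3, 7, and 0, and *Ctsa* was gained for R3 against R1. *Ctsa* was called in 8 of the 24 settings and *Ctsl* lost its call in 13, among them the fit of only the 6 arrays compared (adjusted p = 0.102) and that of all probe sets (0.0795), which was added after the data were seen. With arrays left out, called cathepsins ranged from 1 to 3 for R3 against R2, 2 to 7 for R3 against R1, and 0 for R2 against R1, and called genes from 757 to 2183, 1117 to 2843, and 0 to 124. Without label date 2, *Ctsc* was the 1 call left against R2. *Ctsk* was not tested under the filter on dim probe sets. Among the 10 genes, directions turned only in those that were not called. *Ctsh* was at 0.020 for R3 against R2 with quantile normalization and *Ctsk* at -0.0029 for R2 against R1 with centered arrays. With arrays left out, *Ctsh* ranged from -0.13 to 0.024 between R3 and R2, -0.13 to 0.015 between R3 and R1, and -0.048 to 0.038 between R2 and R1, *Ctsk* in the same order from -0.015 to 0.073, -0.037 to 0.10, and -0.041 to 0.084, and *Ctsz* from -0.15 to 0.034 for R2 against R1. The cause of these changes was not tested. With 3 arrays per population, the 95% interval of *Ctsl* for R3 against R2 spans -1.25 to 0.11, so that a missed call does not exclude a 2-fold change.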

Other observations

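The genes of most similar pattern were also looked up for the 4 cathepsins that were not called, a choice made after the values were seen. For *Ctsz* (root mean square of 0.161 around its own mean over 9 arrays) the nearest of the 19936 other genes were *Ifi30* (root mean square difference 0.0675), which encodes a lysosomal thiol reductase, *Ppp1r11* (0.0713), and *Zfp710* (0.0726). *Ifi30* averaged 12.36 in R3, 12.07 in R2, and 12.17 in R1, and *Ctsz* averaged 11.23, 11.01, and 11.07. For *Ctsa* (0.152) they were *Glmp* (0.0445), *Plekhm1* (0.0445), and *Golga5* (0.0465). For *Ctsh* (0.0827) they were *Dmrt1* (0.0355), *Txnl4a* (0.0370), and *Casq2* (0.0381), and for *Ctsk* (0.0808) *Akap6* (0.0307), *Fam189a1* (0.0333), and *Pappa* (0.0368). These are descriptions with no test, and no shared function was looked for.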
